A study of Mus musculus with 6 samples.

Results

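A set of 7 genes of the WNT pathway was examined in mouse embryonic fibroblasts that carry the mutation of fibrodysplasia ossificans progressiva (FOP), an inherited disease of bone growth in soft tissues. They were the receptor genes Ror2 and Fzd4, the secreted modulator genes Ccn4, Rspo2 and Dkk2, and the genes of the nuclear factors Tcf7l1 and Tcf7l2. ATAC-seq, which maps open chromatin through the cuts of a transposase, was run on 3 FOP mutant libraries, heterozygous for the activating R206H change of the BMP type I receptor gene Acvr1 (Acvr1R206H/+), and on 3 wild-type libraries with unchanged Acvr1 (Acvr1+/+). All 6 libraries came from fibroblasts of E13.5 embryos, grown in serum-containing medium with no other treatment named in the labels. The study calls the 3 libraries of a genotype biological replicates, while the number of embryos behind each is not stated in its labels. The cells are primary fibroblasts in culture, so no bone or muscle tissue was assayed. The label could not be checked against fibroblast markers, because the files list differential regions and hold no expression.

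The deposited data are 2 lists of regions, more accessible and less accessible in FOP mutant than in wild-type cells. Each region has a position, with neither a measured signal nor a test value. The depth is therefore unknown, and the spread between replicate libraries cannot be seen. A region was linked to a gene when its midpoint lay inside the gene's span, or, outside all protein-coding spans, when this gene was the nearest within 100 kb. This gave 18 regions at the 7 genes, of 3521 listed regions and 21887 protein-coding genes in all. The genes were chosen by their linked regions in these same lists, so the counts below describe them and were not tested.

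WNT proteins are secreted signals that bind Frizzled receptors at the cell surface, with LRP co-receptors or with ROR and RYK receptors beside them. In the canonical branch this stabilises beta-catenin, which enters the nucleus and binds TCF and LEF factors at WNT target genes. Secreted proteins tune the signal outside the cell, R-spondins by raising it and Dickkopf proteins mainly by blocking the LRP co-receptors. In mesenchymal cells the pathway is known for its part in bone formation.

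The listed regions at the 7 genes were mostly more accessible in FOP mutant cells. Of the 18 regions, 16 were more accessible and 2 less accessible, a share of 88.9% more accessible, against 84.2% of all 3521 regions. All 7 genes had at least 1 more accessible region, which follows from how they were chosen. Over the annotation, 7.27% of protein-coding genes had one. The 2 less accessible regions belonged to the secreted modulators Rspo2 and Dkk2. A less accessible region was linked to 1.99% of protein-coding genes, and a region of each direction to 0.366%. The receptors held 6 of the more accessible regions, the secreted modulators 5 and the nuclear factors 5. The map of the regions along each gene shows where they lie.

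**Figure D1:**
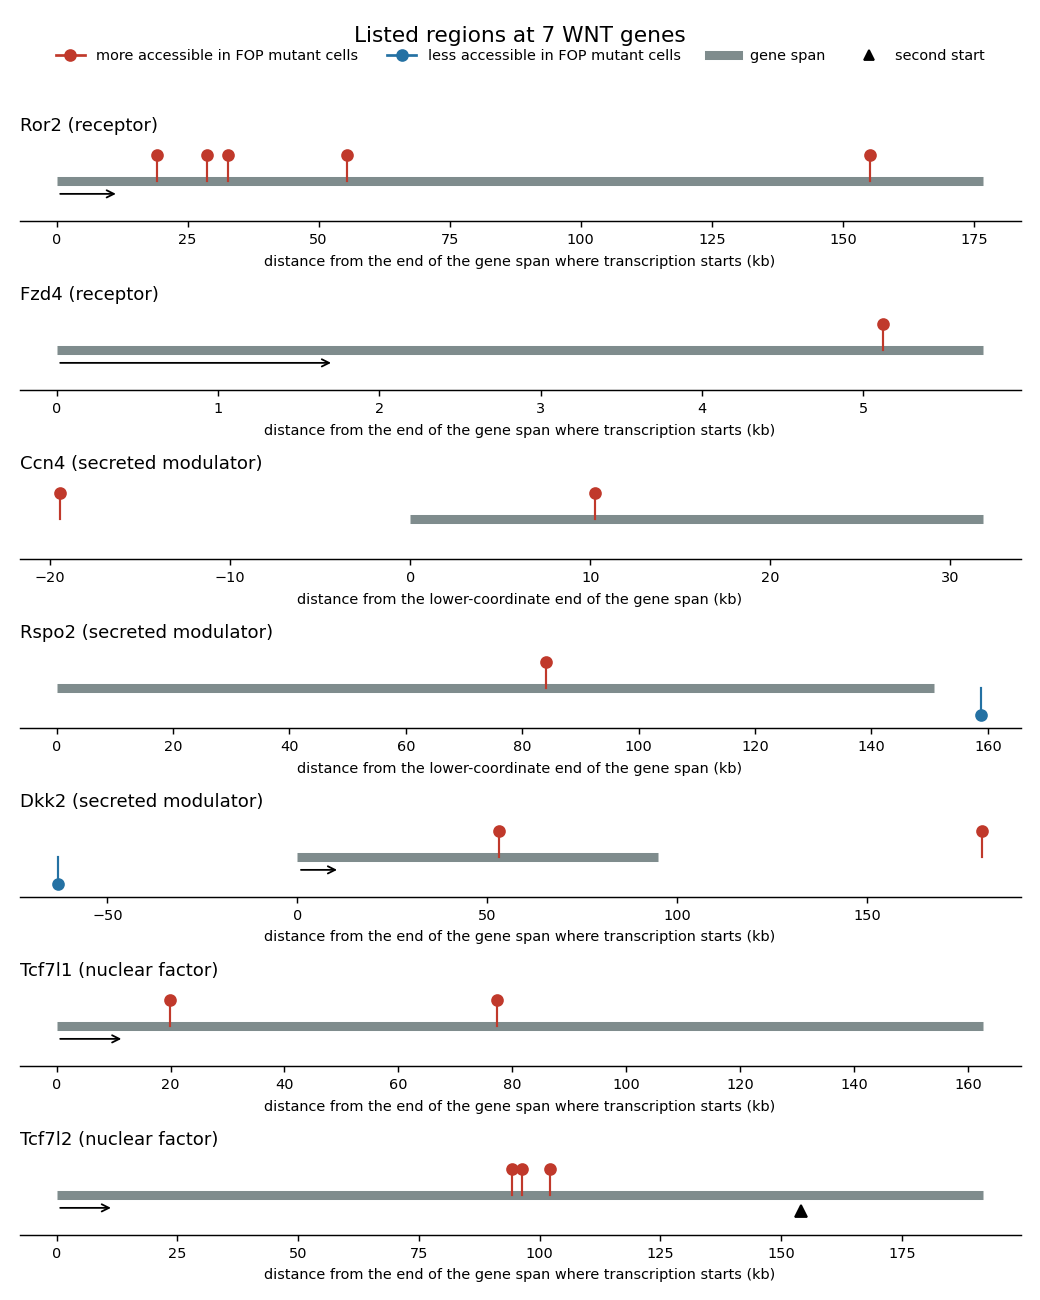
Position of each listed region (circle, at the region's midpoint) along the gene span (grey bar) of the 7 genes, in kb from the end where transcription starts (arrow) or, for Ccn4 and Rspo2, from the lower-coordinate end. Red circles are regions more accessible in FOP mutant than in wild-type cells, blue circles less accessible ones, and the triangle is the second listed start of Tcf7l2. The 2 less accessible regions lie outside the spans of Rspo2 and Dkk2, and 3 regions of Tcf7l2 sit together between its starts.

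Ror2, a receptor tyrosine kinase-like protein that binds WNT5A and acts in the branch of the pathway independent of beta-catenin, had the most regions of the 7 genes. Its 177 kb span on chromosome 13 (chr13:53109317-53286124, minus strand, GRCm38) held 5 more accessible regions and no less accessible one. Only 0.123% of protein-coding genes had 5 or more. The region nearest to the transcription start was chr13:53266415-53267414, 19.2 kb downstream of it and 1000 bp wide. The next regions followed at 28.7 kb (chr13:53257160-53257634, 475 bp), 32.7 kb (chr13:53253091-53253784, 694 bp) and 55.3 kb (chr13:53230448-53231121, 674 bp). The fifth lay apart, 155 kb downstream of the start in the last part of the gene (chr13:53130587-53131158, 572 bp). Thus 4 of the 5 regions stood within a stretch of 37.0 kb in the first part of the transcribed gene, and 3 of them within 14.3 kb. None of the 5 touched the annotated promoter. Inside the span this amounts to 2.83 more accessible regions per 100 kb. The shorter genes Fzd4 and Ccn4, with 1 region inside each, had higher values of 17.4 and 3.14. The rest of the 7 genes had lower ones, from 0.663 at Rspo2 to 1.56 at Tcf7l2. The closest listed region that was not linked to Ror2 was a more accessible one 35 kb outside the gene, nearer to Sptlc1.

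Fzd4, a Frizzled receptor for WNT proteins and for the ligand norrin, is a short gene of 5.75 kb on chromosome 7 (chr7:89404366-89410110, plus strand) and had 1 more accessible region. This region, chr7:89409115-89409868 (754 bp), lay 5.12 kb downstream of the transcription start and 0.619 kb before the end of the gene. It was thus close to the annotated end of transcription and away from the promoter. It was also isolated: the next listed region of either direction was 426 kb away, a less accessible one, and the next more accessible one 915 kb away.

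The promoter letters of both receptors are given because all 6 receptor regions lay downstream of them. Each line is the 250 bases before the annotated start, 5′ to 3′ on the gene's strand, from RefSeq (GRCm38.p6), for Ror2 chr13:53286125-53286374 and for Fzd4 chr7:89404116-89404365, with the matches to the searched motifs in capitals.
Ror2 promoter: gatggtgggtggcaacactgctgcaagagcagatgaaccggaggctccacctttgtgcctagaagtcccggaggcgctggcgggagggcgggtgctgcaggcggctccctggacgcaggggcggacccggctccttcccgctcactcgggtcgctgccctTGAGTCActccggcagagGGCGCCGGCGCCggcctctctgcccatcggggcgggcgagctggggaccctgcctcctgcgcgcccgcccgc
Fzd4 promoter: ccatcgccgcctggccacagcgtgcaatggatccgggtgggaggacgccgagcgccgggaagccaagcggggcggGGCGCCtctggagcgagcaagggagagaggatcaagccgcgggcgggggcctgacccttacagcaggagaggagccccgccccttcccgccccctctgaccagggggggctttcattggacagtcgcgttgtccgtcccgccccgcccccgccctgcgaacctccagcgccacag
Both strands were searched for CTTTGAA and CTTTGAT (TCF/LEF), TGANTCA (AP-1), GGAATG (TEAD) and GGCGCC (BMP-SMAD). The Ror2 window held TGAGTCA, beginning 90 bases before the start, and GGCGCC beginning 72 and 66 bases before it, end to end with no overlap. The Fzd4 window held GGCGCC once, 175 bases before the start. Among all 32851 promoter windows of this length, 6.75% held TGANTCA and 9.59% held GGCGCC. Among the 21263 windows of protein-coding genes the shares were 6.13% and 12.3%. The TCF/LEF letters CTTTGAA were held by 4.46% of all windows, CTTTGAT by 3.21% and the TEAD letters by 12.6%. None of these was in a receptor window. Both windows were rich in G and C, at 73.2% for Ror2 and 72.8% for Fzd4, against a median of 52.4% over all windows. Such matches describe letters and do not show that a factor binds.

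The secreted modulators were the class with regions in both directions. Ccn4, also named WISP1, encodes a matricellular protein known as a target of WNT signalling, and had 2 more accessible regions. Its 31.8 kb span lies on chromosome 15 (chr15:66891369-66923201). One region was inside the gene, 10.3 kb from its lower-coordinate end (chr15:66901404-66901840, 437 bp). The other lay outside, 19.4 kb beyond the same end (chr15:66871731-66872159, 429 bp). The outer region lay almost midway between Ccn4 and Tg, the thyroglobulin gene, whose span ended 21.2 kb from it, so the link to Ccn4 rests on a small difference in distance. Both were narrow, and the outer one was the narrowest region at the 7 genes.

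Rspo2 encodes R-spondin 2, which raises WNT signalling by removing the ligases that clear Frizzled receptors from the cell surface. It had 1 region in each direction. The more accessible region was in the middle of the 151 kb span (chr15:43020788-43171594), 84.1 kb from its lower-coordinate end (chr15:43104701-43105168, 468 bp). The less accessible one lay outside, 8.07 kb beyond the upper-coordinate end (chr15:43179296-43180025, 730 bp). A gap of 74.1 kb separated the 2 regions. On the far side of the less accessible region the nearest protein-coding gene was Eif3e, 70.4 kb away.

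Dkk2, a Dickkopf protein that binds LRP co-receptors, had 2 more accessible regions and 1 less accessible region, spread over 244 kb. The gene spans 95 kb of chromosome 3 (chr3:132085266-132180304, plus strand). The less accessible region lay 63.1 kb upstream of the transcription start (chr3:132021886-132022574, 689 bp), at a position inside the long non-coding RNA gene Gm29949. One more accessible region was inside Dkk2, 52.9 kb downstream of the start (chr3:132137884-132138568, 685 bp). The other lay 85.3 kb beyond the downstream end (chr3:132265377-132265868, 492 bp). From the start of the gene onward the listed regions were thus more accessible, and the region before it was less accessible. The neighbouring protein-coding genes were far: Papss1 ended 379 kb from the less accessible region, and Gimd1 began 364 kb from the last more accessible one. Among the 18 regions, the one at 85.3 kb was the closest to the limit of 100 kb. The next more accessible region on its far side lay 164 kb from Dkk2, past the limit, and was not linked to any gene.

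The nuclear factors had more accessible regions only, all inside the genes. Tcf7l1, a TCF factor known mainly as a repressor of WNT target genes, had 2 in its 163 kb span on chromosome 6 (chr6:72626371-72789045, minus strand). A count of 2 or more was reached by 2.07% of protein-coding genes. The Tcf7l1 regions lay 19.9 kb (chr6:72768694-72769597, 904 bp) and 77.4 kb (chr6:72711127-72712252, 1126 bp) downstream of the start. That position is close to the middle of the gene. Both regions were wide: the wider of them stood at the 96.6th percentile of width among all more accessible regions and was the widest at the 7 genes.

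Tcf7l2, the TCF factor that can activate or repress targets according to its partners, had 3 more accessible regions. Its span covers 192 kb of chromosome 19 (chr19:55741797-55933659, plus strand). A count of 3 or more was reached by 0.722% of protein-coding genes. The regions were chr19:55835801-55836235 (435 bp), chr19:55837795-55838423 (629 bp) and chr19:55843531-55844408 (878 bp). Gaps of 1.56 and 5.11 kb separated them, so that all 3 stood within 8.61 kb near the middle of the gene. The promoter table gives this gene a pair of transcription starts, and the regions lay between them. They were 94.2, 96.3 and 102 kb downstream of the first start, and 59.3, 57.2 and 51.4 kb upstream of the second.

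The letters before both starts are shown because they enclose the 3 regions. Each line is the 250 bases before a start, 5′ to 3′ on the plus strand, from RefSeq (GRCm38.p6), at chr19:55741560-55741809 for the first and chr19:55895071-55895320 for the second, with motif matches in capitals.
Tcf7l2 first start: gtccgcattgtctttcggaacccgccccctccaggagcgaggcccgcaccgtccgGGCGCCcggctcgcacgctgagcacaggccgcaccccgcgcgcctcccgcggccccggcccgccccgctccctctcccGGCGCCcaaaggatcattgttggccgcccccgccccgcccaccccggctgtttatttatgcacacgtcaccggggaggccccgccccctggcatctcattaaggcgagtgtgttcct
Tcf7l2 second start: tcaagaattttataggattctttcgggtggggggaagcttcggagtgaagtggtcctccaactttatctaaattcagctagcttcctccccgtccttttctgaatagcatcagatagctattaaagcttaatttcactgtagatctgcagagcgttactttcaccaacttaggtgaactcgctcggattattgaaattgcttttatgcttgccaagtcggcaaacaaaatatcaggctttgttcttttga
The first window held GGCGCC at 2 places, beginning 195 and 117 bases before the start, and had 72.8% G and C. The second had 40.8% G and C and held none of the searched letters, and neither held a TCF/LEF motif as spelled above. The windows of Tcf7l1 and Dkk2 held none of the motifs either, with 73.6% and 55.6% G and C.

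The regions of the 5 genes with a listed start lay away from their promoters. None of these 14 regions overlapped a listed promoter window, and the same held for nearly all listed regions, since 0.776% of the more accessible and 1.62% of the less accessible regions overlapped one. For the 13 more accessible regions whose gene has a listed start, the median distance to the nearest start was 52.9 kb (range 5.12 to 180 kb). Over the whole more accessible list it was 55.9 kb among 1785 such regions. Of the 16 more accessible regions, 14 lay inside the gene, against 58.7% of the 2290 linked regions of the whole list, while both less accessible regions lay outside. Whether these shares differ from the rest was not tested.

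Regions of Ror2 and Tcf7l2 were grouped. Neighbours were counted up to a gap of 10 kb between edges. Of the 16 more accessible regions, 6 had a neighbour of the same direction, 3 at Ror2 and 3 at Tcf7l2. In the whole more accessible list 12% of regions had one. That share covers all 2965 regions, linked to a gene or not, and the difference was not tested. The less accessible regions at Rspo2 and Dkk2 had none, against 5.4% of the whole less accessible list. Neighbouring regions can be parts of one open stretch and are not independent. Merged across such gaps, Ror2 had 3 regions and Tcf7l2 had 1.

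The regions ranged widely in width. The median width of the 16 more accessible regions was 652 bp (range 429 to 1126 bp), against 572 bp over the whole list. At the nuclear factors 4 of 5 more accessible regions were wider than the list's median, and at the receptors 4 of 6. At the secreted modulators it was 1 of 5, the region inside Dkk2. The less accessible regions at Rspo2 and Dkk2 measured 730 and 689 bp, against a median of 610 bp over the less accessible list. Within Ror2 alone the widths ran from 475 to 1000 bp and within Tcf7l2 from 435 to 878 bp, so the classes overlapped. The difference between classes was not tested.

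**Figure D2:**
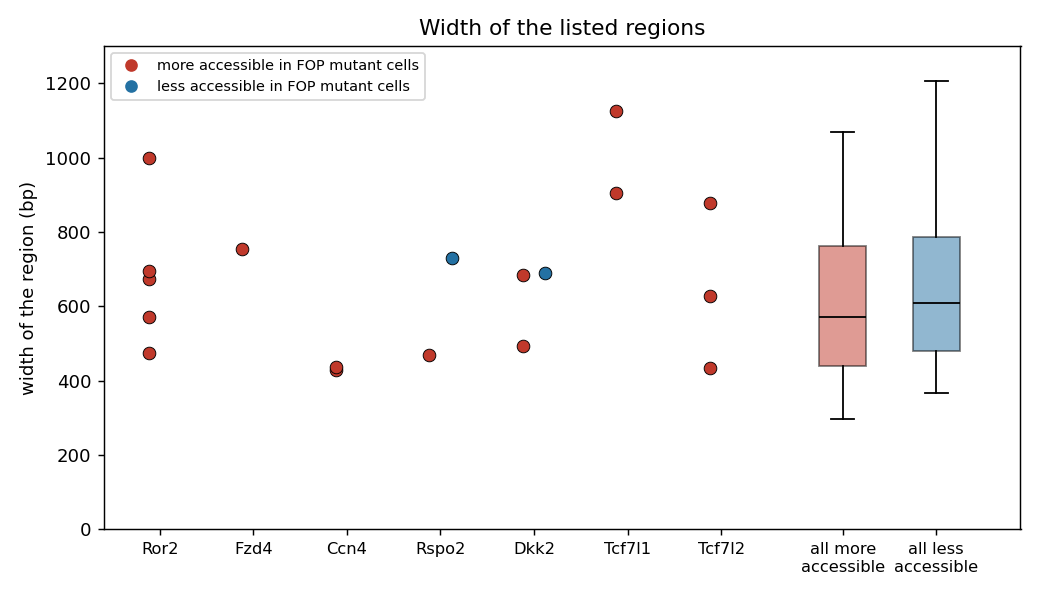
Width in bp of each listed region at the 7 genes (points, red for more and blue for less accessible in FOP mutant than in wild-type cells), beside all regions of each list (boxes from the 25th to the 75th percentile with the median, whiskers from the 5th to the 95th). The points run from 429 to 1126 bp, and those of Ccn4 sit at 429 and 437 bp, under the median of 572 bp.

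Long genes had more linked regions, so each of the 7 genes is set beside genes of like length. Ror2, Rspo2, Tcf7l1 and Tcf7l2 belong to the 1439 protein-coding genes with spans of 100 to 200 kb. Among these, 23.8% had at least 1 more accessible region, 7.09% at least 2, 1.95% at least 3 and 0.208% at least 5. The last share stands for 3 genes, Ror2 among them. These shares count regions unmerged, and with regions within 10 kb merged Ror2 had 3 and Tcf7l2 had 1. A less accessible region was linked to 5.28% of genes of that length, and regions of both directions to 1.81%. Dkk2 falls among genes of 50 to 100 kb, where 11.4% had a more accessible region and 0.318% had regions of both directions. Ccn4 falls among genes of 10 to 50 kb, where 0.632% had 2 or more such regions. Fzd4 falls among genes under 10 kb, where 1.83% had 1 or more. The plot against gene length places the 7 genes among all others.

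**Figure D3:**
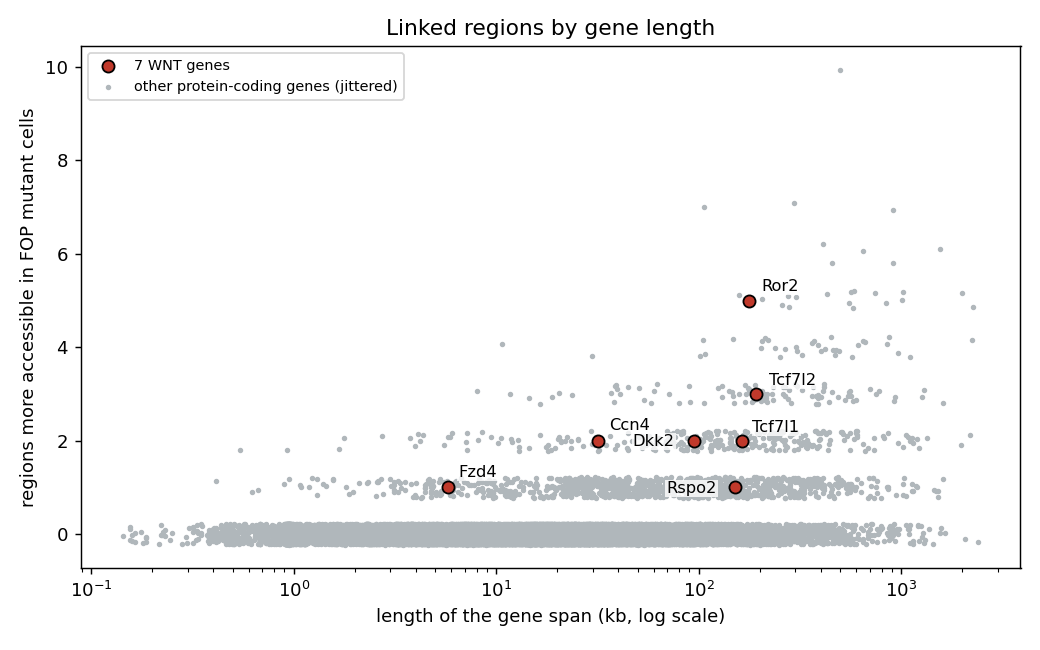
Number of linked regions more accessible in FOP mutant than in wild-type cells (vertical axis) against the length of the gene span in kb (log scale), for the 7 WNT genes (red, labelled) and all other protein-coding genes (grey, spread vertically at random for visibility). Ror2 lies at 177 kb with 5 regions, and Fzd4 at 5.75 kb with 1.

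Other genes of the pathway had regions in every class. A wider list of 98 WNT genes, all matched in the annotation, was set up with earlier results of these data known. In it 20 genes had a more accessible region and 3 a less accessible one, with 33 and 3 regions. Leaving out the 7 genes, 13 of 91 had a more accessible and 1 a less accessible region. Gene length was not accounted for in these counts, and they were not tested against the 7.27% and 1.99% of all protein-coding genes.

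Among the other genes of the class of receptors and co-receptors, 5 of 19 had a more accessible region. This class also held Znrf3 and Rnf43, which are not receptors themselves. Fzd6, a further Frizzled receptor, had 2, 1 inside the gene and 1 at 17.4 kb outside it, and Fzd10 had 1 at 47.8 kb. Lgr5, a receptor for R-spondins, had 1 inside the gene. Znrf3 and Rnf43, the ubiquitin ligases that clear Frizzled receptors from the cell surface and that R-spondins oppose, had 1 and 2, all inside. One of the Rnf43 regions (chr11:87700498-87700936) lay 0.820 kb from a listed start, closer than any region of the 5 genes above with a listed start.

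Among 19 ligands only Wnt4 had a region, more accessible and 26.7 kb outside the gene. Among the other secreted modulators, a class that here also held the membrane proteins Kremen1 and Kremen2, it was 1 of 19. Sfrp1, a decoy that binds WNT proteins, had 1 more accessible region at 32.7 kb. Among the other nuclear factors it was 2 of 12. Lef1, the TCF relative that acts mainly as an activator, had 1 at 69.8 kb, and Tle1, a co-repressor that TCF factors recruit, had 1 at 95.5 kb. Thus the regions of Lef1 and Tle1 lay far outside the genes, while those of Tcf7l1 and Tcf7l2 lay inside.

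Of 22 genes for WNT secretion and for signalling in the cytoplasm, 4 had a more accessible region. Axin2, a scaffold of the beta-catenin destruction complex and a feedback target of the pathway, had 1 at 11.1 kb. Prickle1 and Prickle2, of the planar cell polarity branch, had 2 each. Daam1, a formin of the same branch, had 1 more accessible and 1 less accessible region, both inside the gene. With Rspo2 and Dkk2 it made 3 genes of the wider list with both directions. The counts per gene are drawn by class.

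**Figure D4:**
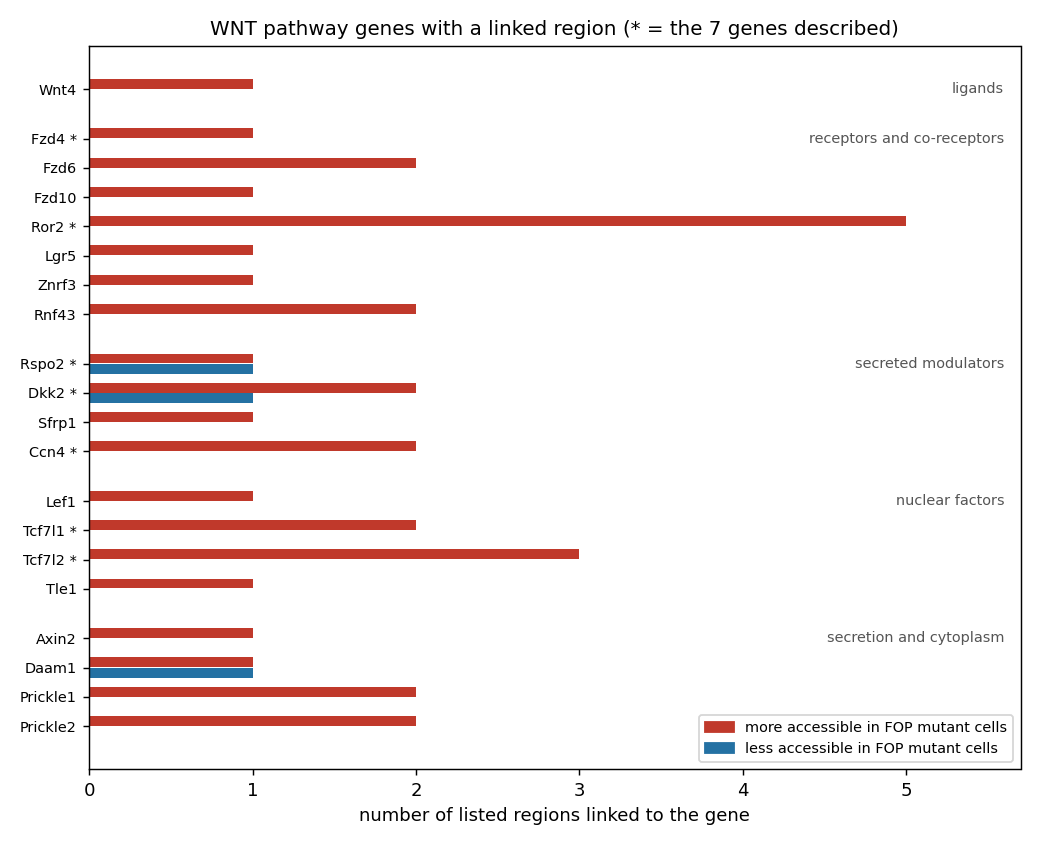
Number of listed regions linked to each of the 20 genes of the wider WNT list that have any, by class, with red bars for regions more accessible and blue bars for regions less accessible in FOP mutant than in wild-type cells. Asterisks mark the 7 genes described in full. The bar of Ror2 reaches 5 regions, and blue bars stand at Rspo2, Dkk2 and Daam1.

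The other 78 genes of the wider list had no linked region. Closest beyond the limit of 100 kb were Vangl1, with a less accessible region at 106 kb, and Nkd1, with a more accessible region at 112 kb. The region near Vangl1 was linked to no gene, while that near Nkd1 was linked to another gene, Cyld.

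Other genes shared the counts of each WNT gene. Named here are those with the same numbers of more and less accessible regions and the most similar span length, which says nothing of shared function. For Ror2, 14 other genes had 5 and 0 regions, and the nearest in length were Ccdc34 (158 kb), Lmo7 (205 kb) and Mylk (257 kb). For Tcf7l2, 89 others had 3 and 0, nearest Gadl1, Cenpp and Itga8. For Tcf7l1 and Ccn4, 275 others had 2 and 0, nearest to Tcf7l1 being Svep1, Peli2 and Pmfbp1, and to Ccn4 Atp1b3, Fzd6 and A530021J07Rik. For Dkk2, 15 others had 2 and 1, nearest Gcnt2, Prkar2b and Itprid2. For Rspo2, 48 others had 1 and 1, nearest Col5a1, Cdh6 and Afdn. For Fzd4, 1087 others had 1 and 0, nearest Gm4832, Tlr2 and Spp1.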

How the data were processed

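Libraries were made from FOP mutant and wild-type fibroblasts, 3 each, by tagmenting nuclei with a commercial kit, amplifying by PCR and reading 150 bp paired ends, per the labels' protocols. Per the submitters' processing notes the builds were mm10 and GRCm38 and the tools DESeq2, featureCounts, bedtools, MACS2, SAMtools, Bowtie2 and Trimmomatic. Their versions and cutoffs, and any pooling before peak calling, are not stated there. The authors deposited 2 lists of positions in base pairs, and the direction was taken from each list's name. Values per library were not analysed here.

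Positions were counted from 1 and linked by midpoint to 21887 protein-coding genes of the RefSeq table of GRCm38.p6 (Python 3.11.15, numpy 2.4.6, matplotlib 3.10.9), a midpoint within several spans going to each. Strand and starts came from the RefSeq promoter table, which has 5 of the 7 genes. For all 2000 regions of a simulated set, the linking gave the same answer as a second, gene-by-gene coding of the same rule. This checks the code and not whether a region acts on its linked gene. The alternatives were limits of 10 kb, 50 kb or none, the nearest gene end, any overlapping base, merging within 10 kb, and all annotated genes.

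The 7 genes and the wider WNT list were chosen with earlier results of these data known. Genes named are the 7, other WNT genes with a linked region, the 2 WNT genes with a region nearest beyond the limit, the 3 genes most alike each of the 7, and flanking genes. Lgr4, Wnt16, Lrp6, Sfrp2, Ctnnb1, Gsk3a and Wnt8a were named after their values were seen. So were Fam3c, Mansc1, Dedd2, Fam13b and Cyld, to which regions near WNT genes were linked. Kremen1 and Kremen2 were named only to describe their class.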

Additional observations from a re-analysis of the deposited data

How the results depend on the processing

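All 7 genes kept a more accessible region under each of the 7 alternative ways of linking, and the number of such regions ranged from 12 (regions within 10 kb merged) to 18 (nearest gene at any distance), against 16. The less accessible regions depended more on the choice. With a limit of 10 kb, with a limit of 50 kb, and with all annotated genes competing for the link, 1 less accessible region and 1 gene with such a region were left, at Rspo2. The region upstream of Dkk2 was then farther than the limit, or went to the non-coding gene that holds it. Ccn4 also lost the link to its outer region with a limit of 10 kb and with all annotated genes, which left Ccn4 1 more accessible region. Dkk2 had 1 more accessible region with a limit of 10 or 50 kb, and 4 with the nearest gene at any distance. Merging left 3 regions at Ror2 and 1 at Tcf7l2. The wider list had 23 to 45 more accessible and 2 to 4 less accessible regions, against 33 and 3. The share of protein-coding genes with a more accessible region ranged from 5.03% to 8.44% and with a less accessible one from 1.47% to 2.31%. Measured from the edges of the regions, the median distance to a gene end was 37.0 kb, against 37.4 kb from midpoints. No paired analysis was possible because the lists hold no value per library, and for the same reason no replicate could be left out. Depth limits are unknown, since the lists give no counts.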

Other observations

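Several WNT genes without a linked region lay near listed regions that went to a closer gene. There were 14 such genes among the 78 with no link, with a nearest region within 100 kb that was more accessible for 9 and less accessible for 5. The ligand gene Wnt16 had a more accessible region 7.58 kb from its span, assigned to Fam3c. The co-receptor gene Lrp6 had a more accessible one at 35.7 kb, assigned to Mansc1. Less accessible regions lay nearer than that to Gsk3a, at 30.4 kb and assigned to Dedd2, and to Wnt8a, at 33.9 kb and assigned to Fam13b. The decoy receptor gene Sfrp2 had a more accessible region at 42.3 kb, and the beta-catenin gene Ctnnb1 one at 47.7 kb. Lgr4, which encodes a receptor for R-spondins, lay next to Ccdc34, the gene of like length to Ror2 that also had 5 more accessible regions. The 5 regions of Ccdc34, on chromosome 2, lay 22.9, 24.6, 60.7, 121 and 135 kb from Lgr4 and all inside Ccdc34. Position alone does not say which gene a region acts on.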
